A study of Mus musculus with 18 samples.

Results

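The miR-378 family was followed in mouse femoral condyle cartilage in a model of joint injury, a mechanical tear of the anterior cruciate ligament (ACL). Its members were the 5 mature miRNAs of the count table whose names are mmu-miR-378a-5p, mmu-miR-378a-3p, mmu-miR-378b, mmu-miR-378c and mmu-miR-378d (written below without the species prefix), of 1412 miRNAs in all. All 5 passed the filter on low counts, as did 428 miRNAs of the table. The family was chosen by the measured tie of its levels to those of miR-1a-3p, a muscle miRNA, across libraries, so that tie is described here and not tested.

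The 18 small RNA libraries came from wild-type male C57bl6 mice, 12 weeks old. In 2 sets of 3 libraries each, the right knee had been given a single 12 N load that ruptured the ACL, and the cartilage was taken at day 1 or day 7. The unloaded left (contralateral) knees of those times gave 3 libraries each, and 6 libraries came from naïve mice that belonged to day 7 and received no load. A library held cartilage pooled from mice. The submitters' design text gives 4 mice per library while the study's scheme gives smaller pools for some groups, and libraries that share mice are not marked, so p-values measure only the spread between these libraries. A contralateral knee is from an injured mouse. The study counts 6 naïve mice, with left and right knees pooled separately, so naïve left and right libraries share mice.

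MicroRNAs are short RNAs that are cut from a hairpin and guide a silencing complex to messenger RNAs, mostly by pairing of the seed, bases 2 to 8 of the mature miRNA. The miR-378a hairpin lies in an intron of Ppargc1b, on the same strand. That gene encodes PGC-1β, a coactivator of genes for mitochondria and fatty acid oxidation. miR-378a-3p is the arm usually taken as the guide, miR-378a-5p is the other arm of the same hairpin, and the family is best known from skeletal muscle, heart and brown fat. miR-1a-3p is the most abundant miRNA of skeletal muscle.

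Mature sequences are shown for 3 of the 5 members, because their near identity limits how far reads of the members can be told apart. They were taken from RefSeq on GRCm38.p6, 5′ to 3′, with the seed in capitals.
miR-378b: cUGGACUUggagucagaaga
miR-378c: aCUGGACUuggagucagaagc
miR-378d: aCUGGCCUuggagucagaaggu
The miR-378b hairpin lies at chr11:88352773-88352864 on the plus strand, opposite an intron of Msi2. The miR-378c hairpin lies at chr14:46954830-46954928 on the minus strand, opposite an intron of Samd4. The miR-378d hairpin lies at chr10:126710282-126710391 on the minus strand. No annotated gene other than miRNA genes holds it whole, and partial overlaps were not looked for. miR-378a-5p and miR-378a-3p are not shown.

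miR-378c and miR-378b shared an unbroken run of 19 bases, which starts at base 2 of miR-378c and at base 1 of miR-378b. Their seeds overlap with a shift of 1 base, and each holds 1 end base that the other lacks. miR-378d differed from miR-378c inside the seed, by A6C, and near the 3′ end, by C21G, with positions counted from 1 at the 5′ end of miR-378c. None of the 3 seeds was that of any other of the 1679 mature miRNAs in the sequence table, a comparison that did not include miR-378a-5p and miR-378a-3p. A read of the shared run matches both miR-378b and miR-378c, and how such reads were assigned is not spelled out in the sources used here. No member had the same counts as another miRNA in every library, which does not tell whether shared reads were entered under each name. Outside the family, miR-486a-5p and miR-486b-5p had the same counts, which is what entry of shared reads under each name would give. Whether reads that match several members were entered in that way was not tested, so the split between near-identical members is uncertain.

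Library totals lay between 758388 counts (day 7 injured replicate 1) and 4088852 counts (day 7 contralateral replicate 2). Between 604 and 859 miRNAs were detected per library. The samples are labelled as chondrocyte cartilage. miR-140-5p and miR-140-3p, the defining cartilage miRNAs, had counts in 18 of 18 libraries. They stood at 4820 ± 1426 and 2697 ± 365 CPM (abundance scaled to library size with TMM, mean ± SD, n = 18). Such counts do not single out cartilage, since 286 miRNAs had at least 10 counts in every library. The vascular miRNA miR-126a-3p stood higher, at 56524 ± 11727 CPM. The highest miRNA of the table by mean CPM was miR-1a-3p, at 141427 ± 58433 CPM, and it took between 6.42% and 24.2% of the counts of a library. In pooled tissue, fewer cells of a type and less RNA per cell cannot be told apart.

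The family took 1.98% ± 0.529 of all counts (SD, n = 18), from 1.06% to 3.26%. Its share was 2.06% ± 0.418 in naïve libraries (n = 6) and 1.32% ± 0.321 in day 7 injured libraries (n = 3). miR-378d was the most abundant member, at 9612 ± 2711 CPM (rank 21 of 428 tested miRNAs by mean CPM), and miR-378a-3p followed at 7920 ± 3247 CPM (rank 27). miR-378c stood at 2206 ± 876 CPM (rank 51) and miR-378a-5p at 274 ± 104 CPM (rank 127). miR-378b was the least abundant, at 44.8 ± 15.7 CPM (rank 217), and rested on 26 to 170 counts per library. The SDs of miR-378d and miR-378a-3p cover each other's means, and those of the other 3 members do not. Of the family's counts, miR-378d held 48.8% ± 5.52, miR-378a-3p 38.8% ± 4.64, miR-378c 10.8% ± 1.15, miR-378a-5p 1.35% ± 0.153 and miR-378b 0.222% ± 0.0276 (SD, n = 18).

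Across libraries the members spanned 2.92-fold (miR-378d) to 4.37-fold (miR-378a-3p) between the highest and lowest library. Day 1 injured replicate 3 was the highest library for all members except miR-378d, whose highest was day 7 contralateral replicate 1. Day 7 injured replicate 3 was the lowest for all except miR-378c, whose lowest was naïve replicate 5. Day 1 injured replicate 3 also had the smallest TMM factor of the series, 0.712, and naïve replicate 5 the largest, 1.36, so the scaling raised the CPM of the former and lowered that of the latter.

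**Figure D1:**
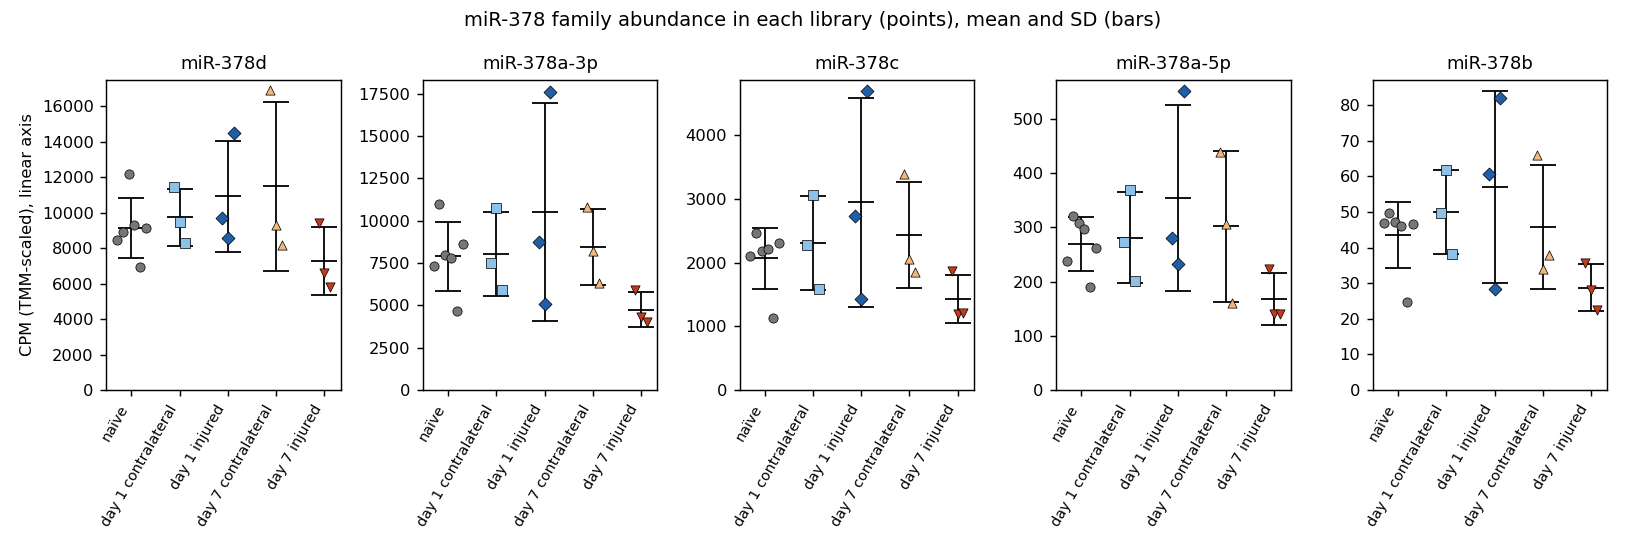
CPM of each miR-378 member (linear axes from 0) in every library, by group; points are libraries, the long bar is the group mean and the whiskers are the SD (n = 6 naïve, n = 3 in every other group). The day 7 injured group has the lowest mean in each panel and overlaps the naïve libraries in all 5; for miR-378d its highest library (9417 CPM) lies above the naïve median (9018 CPM).

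In day 7 injured cartilage all 5 members had lower means than in the other groups, and no member passed the test against naïve, day 7 contralateral or day 1 injured cartilage. The comparison with day 1 contralateral cartilage was not tested. miR-378a-3p, the guide arm that names the family, was at 5929, 4303 and 4030 CPM in the 3 day 7 injured libraries. In the 6 naïve libraries it was at a lowest of 4653, a median of 7882 and a highest of 10955 CPM. Day 7 injured replicate 1 thus lay above the lowest naïve library, and the groups overlapped.

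Against naïve cartilage, which asks what the injured joint differs by after a week, the log2 fold change of miR-378a-3p was -0.73 (SE 0.33, 95% confidence interval -1.41 to -0.05, limma-voom adjusted p = 0.149). The 5p arm of the same hairpin, miR-378a-5p, stood at 223, 140 and 140 CPM in day 7 injured libraries and between 191 and 322 CPM in naïve libraries (log2 fold change -0.71, SE 0.32, adjusted p = 0.153). The values of miR-378b (-0.65), miR-378c (-0.55) and miR-378d (-0.36) had intervals that included 0, and limma-voom gave them adjusted p-values of 0.232, 0.331 and 0.394. For miR-378d the interval ran from -0.88 to 0.15.

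Thus 0 of 5 members were called in day 7 injured versus naïve cartilage by limma-voom, where 18.2% of the 428 tested miRNAs were called and 3.74% were called as lower. edgeR and DESeq2 also called 0 of 5. At an unadjusted p under 0.05, 2 of 5 members were lower, against 8.18% of all tested miRNAs. No member was free of overlap between the groups (0 of 5, with 8.64% of all lower without overlap). All 5 fold changes were below 0, as were 50.0% of all, and the members' median was -0.65 where that of all tested miRNAs was -0.00.

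Compared with the uninjured knee of the same day, miR-378a-3p was the member whose groups did not overlap. Its day 7 contralateral libraries were at 10816, 8232 and 6292 CPM, all above the day 7 injured libraries. The log2 fold change was -0.83 (SE 0.37, 95% confidence interval -1.60 to -0.05, limma-voom adjusted p = 0.172). miR-378d was at 16910, 9312 and 8201 CPM in contralateral and at 9417, 6613 and 5782 CPM in injured libraries, an overlap made by 1 injured library (log2 fold change -0.62, SE 0.28, adjusted p = 0.179). The other 3 members had log2 fold changes of -0.78 (miR-378a-5p), -0.65 (miR-378b) and -0.75 (miR-378c).

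In that comparison 0 of 5 members were called by limma-voom, edgeR or DESeq2, where limma-voom called 14.7% of all tested miRNAs and 0.935% as lower. At an unadjusted p under 0.05, 3 of 5 were lower (6.54% of all tested miRNAs), and 1 of 5 did not overlap between the groups and was lower (9.11% of all). All 5 values were below 0, as were 52.8% of all. Without day 7 contralateral replicate 3, miR-378a-5p passed limma-voom's threshold (adjusted p = 0.0387) with a log2 fold change of -1.19. That fit called 68 of 454 tested miRNAs, 8 of them as lower. Without day 7 contralateral replicate 1, the highest library of miR-378d, the values were -0.39 (miR-378a-5p), -0.59 (miR-378a-3p), -0.32 (miR-378b), -0.45 (miR-378c) and -0.27 (miR-378d).

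The injured knees of day 7 and day 1 were compared next. miR-378a-5p was at 280, 233 and 551 CPM at day 1, all above its day 7 values, and its log2 fold change was -1.03 (SE 0.37, 95% confidence interval -1.80 to -0.25, limma-voom adjusted p = 0.0730). miR-378a-3p was at 8756, 5095 and 17622 CPM at day 1, a 3-library spread within which day 7 injured replicate 1 fell (log2 fold change -1.01, SE 0.37, adjusted p = 0.0793). miR-378b, miR-378c and miR-378d had log2 fold changes of -0.97, -0.95 and -0.61 between these groups.

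By limma-voom 0 of 5 members were called between the injured knees, where 15.7% of tested miRNAs were called and 3.50% as lower. All 5 had an unadjusted p under 0.05 (11.2% of tested miRNAs were lower at that level), and 1 of 5 was lower without overlap (15.7% of all). edgeR and DESeq2 each called 2 of 5, where they called 16.4% and 17.8% of all. All 5 values were below 0, as were 53.5% of all. These values rested on which day 1 libraries entered. Without day 1 injured replicate 2, 3 of 5 members were called and miR-378a-3p stood at -1.31 (limma-voom adjusted p = 0.0110). That fit called 12.9% of 449 tested miRNAs, 9 of them as lower. Without day 1 injured replicate 3, no member was called and miR-378a-3p stood at -0.43.

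At day 1 no difference of the family between the knees was shown, within wide intervals. miR-378a-3p was at 7507, 10751 and 5889 CPM in contralateral libraries, inside the spread of the injured ones. Its log2 fold change was 0.25 (95% confidence interval -0.51 to 1.01, limma-voom adjusted p = 0.997), an interval that leaves room for a difference of 1 log2 unit in favour of the injured knee. The members ranged from 0.12 (miR-378b) to 0.28 (miR-378a-5p). In this comparison 0 of 5 members and 0% of tested miRNAs were called by limma-voom, 8 miRNAs (1.87%) and no member had an unadjusted p under 0.05, and neither edgeR nor DESeq2 called any miRNA. The direction was not held: without day 1 injured replicate 3 the 5 values ran from -0.24 (miR-378a-3p) to -0.10 (miR-378d).

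Between day 7 contralateral and naïve cartilage, which share the absence of a load on that knee, no difference in the family was shown. The log2 fold changes ran from -0.00 (miR-378b) to 0.25 (miR-378d), with limma-voom adjusted p-values of 0.759 to 0.991. Confidence intervals were wide, at -0.56 to 0.75 for miR-378a-3p, -0.48 to 0.88 for miR-378c and -0.25 to 0.76 for miR-378d. They leave room for a difference in either direction. Here 0 of 5 members and 0% of tested miRNAs were called, with 23 miRNAs (5.37%) but no member at an unadjusted p under 0.05. edgeR called 0 miRNAs and DESeq2 called 1, not a member.

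The injury effect at day 7 minus that at day 1, tested as 1 interaction, was -1.07 for miR-378a-3p (SE 0.52, 95% confidence interval -2.16 to 0.01, limma-voom adjusted p = 0.308). The other members lay between -1.05 (miR-378a-5p) and -0.76 (miR-378b and miR-378d). Without day 1 injured replicate 3 the value of miR-378a-3p was -0.54, and without day 1 injured replicate 2 it was -1.42 (limma-voom adjusted p = 0.0751). No member was called (0 of 5, with 0 at an unadjusted p under 0.05 and 0 by edgeR and DESeq2), where 6.78% of tested miRNAs were and 16.4% had an unadjusted p under 0.05. All 5 values were below 0, as were 48.4% of all. An injury effect that differed between the days was therefore not shown for the family.

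**Figure D2:**
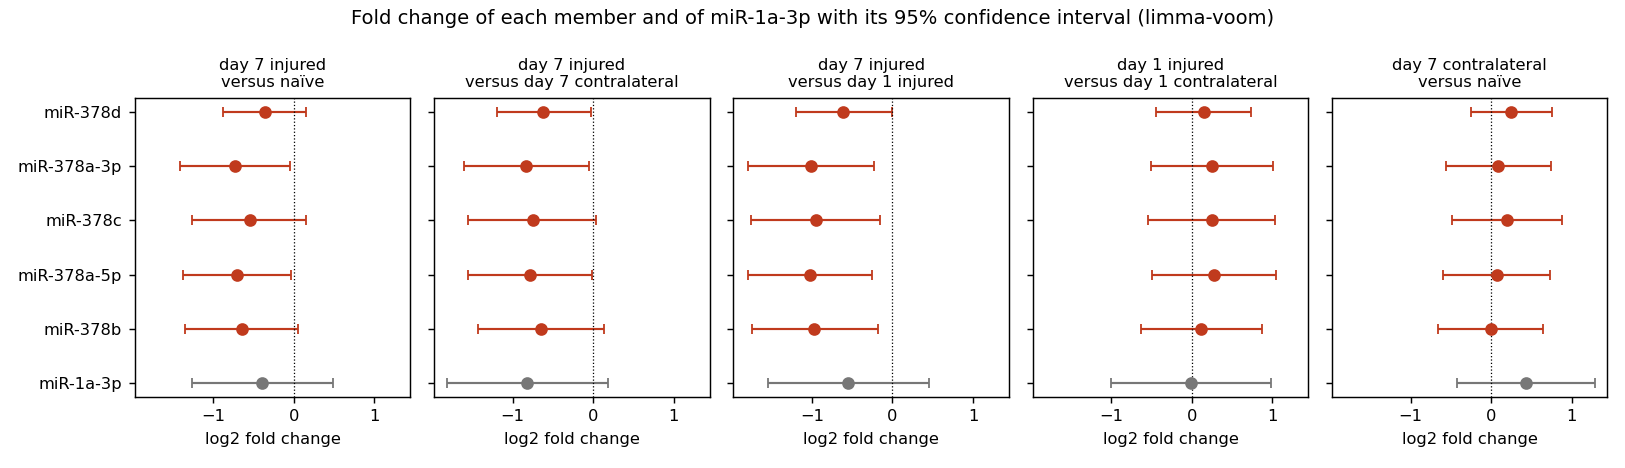
Log2 fold change (horizontal axis) of the 5 members and of miR-1a-3p in 5 comparisons, with 95% confidence intervals from limma-voom on 18 libraries. All members lie left of 0 in the 3 day 7 injured comparisons, where the members' medians were -0.65, -0.75 and -0.97, and their intervals reach to or near 0.

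Because reads of near-identical members may be shared, the counts of miR-378a-3p, miR-378b, miR-378c and miR-378d were also added into 1 feature before the fit. A read entered under several names would be counted repeatedly in it, so the sum does not resolve shared reads. The sum had a log2 fold change of -0.52 (SE 0.27, adjusted p = 0.232 by limma-voom) in day 7 injured versus naïve cartilage. It was -0.71 (SE 0.30, adjusted p = 0.148) against the contralateral knee and -0.79 (SE 0.31, adjusted p = 0.0964) against the injured knee of day 1. It was 0.24 between the knees at day 1, 0.18 in day 7 contralateral versus naïve cartilage and -0.94 (adjusted p = 0.250) for the interaction. None of these 6 values passed the threshold.

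The balance of the arms of the miR-378a hairpin was a measure that needs no scaling between libraries. The 3p arm exceeded the 5p arm 28.7-fold (geometric mean of 18 libraries), from 21.8-fold in 1 day 1 injured library to 39.0-fold in 1 day 7 contralateral library. The group means lay between 27.9-fold and 29.6-fold. In day 7 injured libraries the log2 ratio was 4.84 ± 0.11 (SD, n = 3) and in naïve libraries 4.85 ± 0.20 (SD, n = 6). The difference, -0.01, was smaller than the spread between libraries (exact permutation test over 84 splits, two-sided, p = 0.964, where the smallest p that the design allows is 0.0119). Exact tests of this ratio treat the naïve libraries as independent, although left and right ones share mice.

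Where reads of all 3p-like members were counted as the 3p arm, the day 7 injured ratio was higher than the naïve one by 0.19 log2 units (exact permutation test, two-sided, p = 0.0238). Reads entered under several names would be counted repeatedly in that sum of counts. That sum is led by miR-378d, whose ratio to miR-378a-3p was 1.43 to 1.59 in day 7 injured libraries and 0.813 to 1.52 in naïve libraries. Over all 18 libraries that ratio had a geometric mean of 1.26, and day 1 injured libraries alone spanned 0.822 to 1.68. miR-378c kept closer to miR-378a-3p, at a ratio of 0.279 (0.224 to 0.314), with 0.298 in day 7 injured and 0.262 in naïve libraries. The ratio of miR-378b to miR-378a-3p was 0.00576. Differences of these last ratios between groups were not tested.

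**Figure D3:**
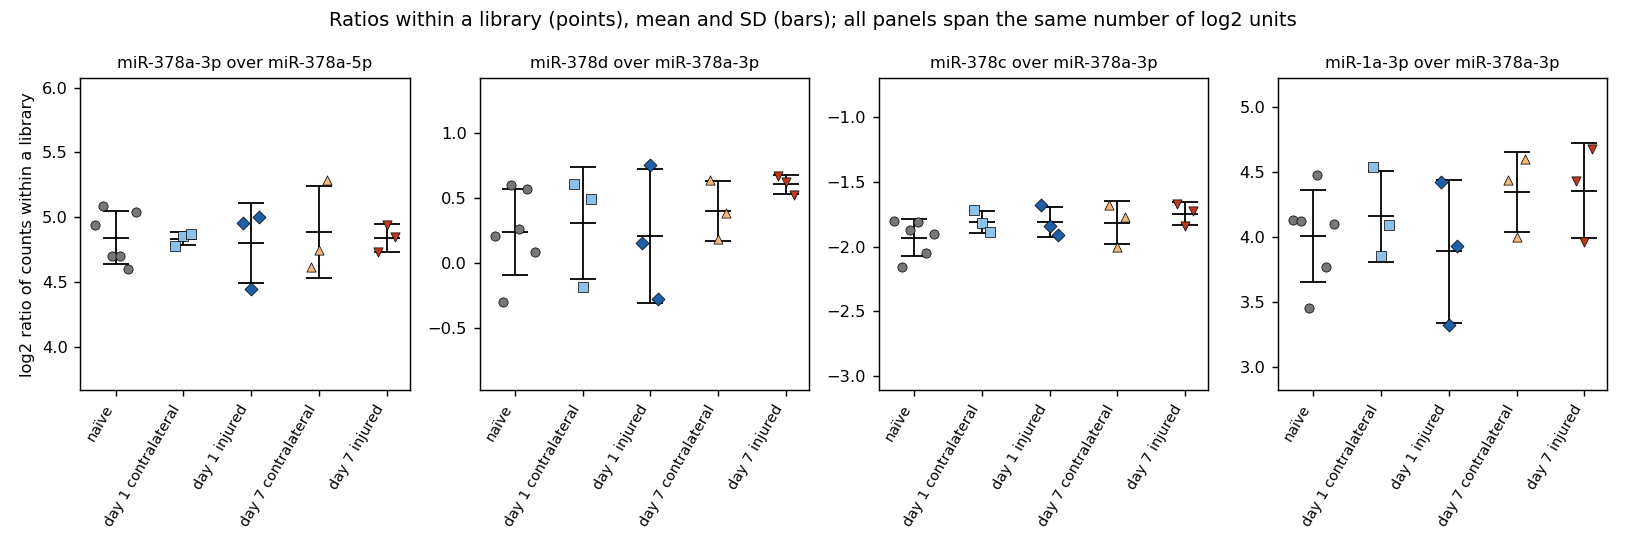
Log2 ratio of counts within each library (vertical axis; every panel spans the same number of log2 units) for pairs of miR-378 members and for miR-1a-3p over miR-378a-3p, by group; points are libraries, bars are the mean and SD. The ratio of the arms of miR-378a has group means between 27.9 and 29.6 on the linear scale, while miR-378d over miR-378a-3p ranges from 0.813 to 1.68.

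Among themselves the members moved closely together. Over the 18 libraries, Pearson's r of log2 CPM was 0.97 for miR-378a-3p with miR-378c and for miR-378b with miR-378c, and 0.93 for miR-378a-3p with miR-378a-5p. miR-378d followed the others less closely, with r between 0.79 (miR-378a-3p) and 0.87 (miR-378a-5p). The 10 pairs are a description, since near-identical members can share reads and all share the scaling of a library.

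The tie to miR-1a-3p, by which the family was chosen, was described over the same 18 libraries. miR-1a-3p was at 127800, 67190 and 103150 CPM in day 7 injured libraries, at 50883 to 268001 CPM in day 1 injured libraries and at 63550 to 191106 CPM in naïve libraries, so it varied within groups as widely as between them. miR-378c was the closest member (Pearson's r 0.86, Spearman's rho 0.88), followed by miR-378b (0.82 and 0.80) and miR-378a-3p (0.81 and 0.83). miR-378a-5p (0.67 and 0.69) and miR-378d (0.63 and 0.62) were further off. Of 427 miRNAs ranked by r with miR-1a-3p, the members took ranks 4 (miR-378c), 7 (miR-378b), 9 (miR-378a-3p), 26 (miR-378a-5p) and 38 (miR-378d), and the median r of all was -0.03.

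The tie was also present inside the groups. With each group's mean removed, r was 0.84 for miR-378a-3p, 0.88 for miR-378c and 0.56 for miR-378d. Within the 6 naïve libraries alone, r was 0.83 for miR-378a-3p and 0.21 for miR-378d. Without the 2 libraries farthest from the median of miR-1a-3p (day 1 injured replicate 2 and naïve replicate 5), r of miR-378a-3p was 0.80 over the remaining ones.

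Part of these values moved with the scaling. With library totals in place of TMM, r was 0.68 for miR-378a-3p, 0.76 for miR-378c and 0.38 for miR-378d, the ranks became 9, 4 and 40, and the median of all miRNAs became -0.26. In naïve libraries miR-378d then had r = -0.38. With totals counted without miR-1a-3p and the members, r of miR-378a-3p was 0.77. The log2 CPM of miR-378a-3p had r = -0.61 with the log2 TMM factor and r = 0.36 with log2 of the library total, and for miR-378d these were -0.25 and -0.04. The part of the scaling in the tie was not tested.

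**Figure D4:**
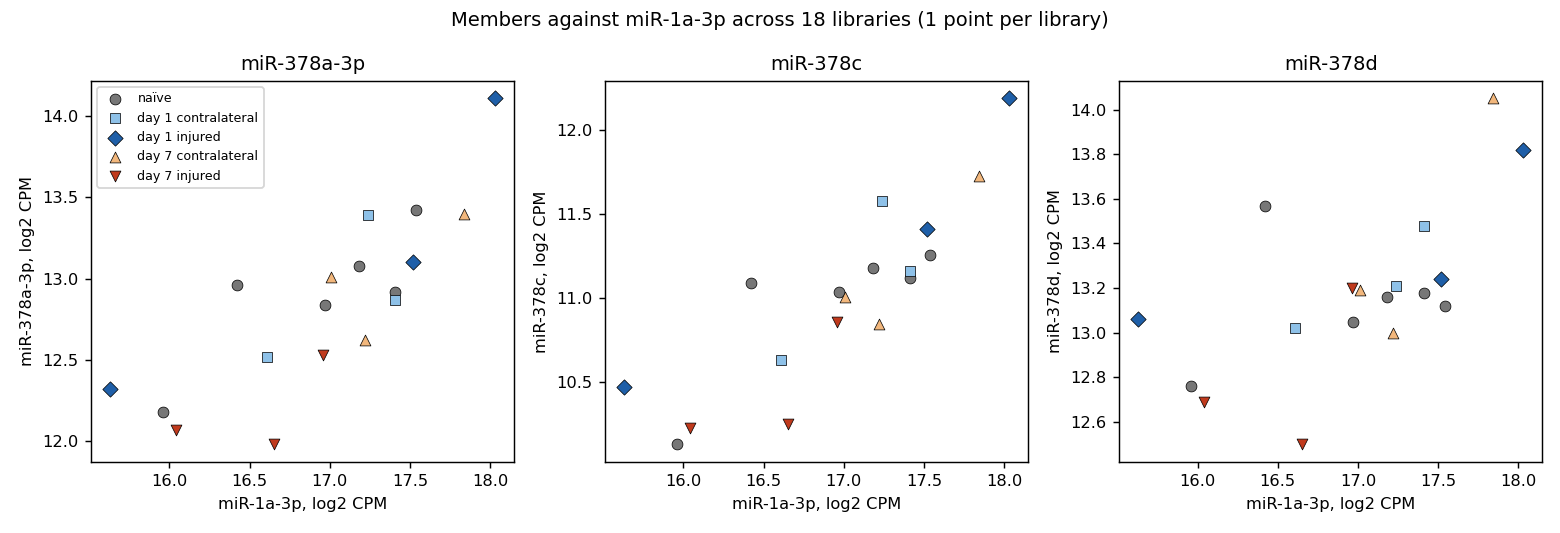
Log2 CPM of miR-378a-3p, miR-378c and miR-378d (vertical axes) against log2 CPM of miR-1a-3p (horizontal axes), 1 point per library (n = 18), with colour and shape for the group. miR-378c lies closest to a line (r = 0.86) and miR-378d is the most scattered (r = 0.63).

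miR-1a-3p outnumbered miR-378a-3p 17.5-fold (geometric mean), from 9.99-fold to 25.6-fold. The ratio was 20.5 in day 7 injured and 16.1 in naïve libraries. In day 7 injured versus naïve cartilage miR-1a-3p had a log2 fold change of -0.39 (SE 0.42, adjusted p = 0.582 by limma-voom), and it was -0.82 (SE 0.48, adjusted p = 0.323) against the contralateral and -0.55 (SE 0.48, adjusted p = 0.512) against the day 1 injured knee. With log2 CPM of miR-1a-3p as a covariate, miR-378a-3p stood at -0.50 against naïve (limma-voom adjusted p = 0.105), -0.34 against contralateral (0.426) and -0.68 against day 1 injured cartilage (0.0579). In each of these fits 0 of 5 members were called, where 22.4%, 17.3% and 21.0% of all tested miRNAs were. Because the family was chosen by its tie to miR-1a-3p, smaller changes under this covariate can follow from that choice and decide nothing.

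The miRNAs whose levels were most like those of miR-378a-3p were taken by Pearson's r over 18 libraries among the 423 tested non-members, as a description. They were miR-133a-5p (0.86), miR-30a-5p (0.82), miR-1a-3p (0.81), miR-1b-5p (0.80), miR-30a-3p (0.77), miR-30c-2-3p (0.76), miR-133a-3p (0.74) and miR-451a (0.72). Of these 8, 4 are among the 8 tested miRNAs of the skeletal muscle list, 1 of them miR-1a-3p itself, by whose tie the family was chosen, and miR-451a is in the erythroid list. Another of the 4, miR-1b-5p, lay at 18857 CPM, while miR-1b-3p did not pass the filter on low counts. Whether the values of miR-1b-5p are independent of miR-1a-3p was not tested. miR-133a-5p is the minor arm of a muscle hairpin and lay at 11.3 CPM. The order rested on 1 library: without day 7 contralateral replicate 1, miR-30a-5p (0.92) and miR-30a-3p (0.87), which are not in the muscle list, lay above miR-133a-5p (0.85), miR-133a-3p (0.84), miR-1a-3p (0.80) and miR-1b-5p (0.79). In day 7 injured versus naïve cartilage, limma-voom called none of the 8, and their log2 fold changes ran from -0.95 (miR-133a-3p) to -0.16 (miR-1b-5p).

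Skeletal muscle miRNAs are given beside the family. Of 16 listed, 15 were in the table and 8 were tested. Those with a count in few libraries were miR-206-5p and miR-208a-3p, each at 0 in all libraries but 1, and miR-133b-5p, with a count in 3. The summed CPM of the list was 79448 to 151212 in day 7 injured, 154413 to 280436 in day 7 contralateral and 74263 to 225977 in naïve libraries, and 115844 to 200848 and 62206 to 313607 in day 1 contralateral and injured libraries. In day 7 injured versus naïve cartilage, 0 of 8 were called (18.2% of all tested miRNAs), all 8 values were below 0 (50.0% of all) and their median was -0.46 (-0.00 for all). The median was -0.86 against the contralateral knee (-0.05 for all), again with 0 of 8 called (14.7% of all). Against the day 1 injured knee it was -0.51 (-0.07 for all), and 1 of 8, miR-133a-5p, fell by 1.42 on the log2 scale (SE 0.47, limma-voom adjusted p = 0.0453), where 3.50% of all were called as lower. The part of muscle RNA in the values of the family was not tested.

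The closeness of each member to single muscle miRNAs differed. miR-378a-3p had r = 0.80 with miR-1b-5p but 0.59 with miR-206-3p, a myogenic miRNA, and 0.45 with miR-499-5p, which is encoded in a slow myosin gene. miR-378d had its highest values with miR-133b-3p (0.83), miR-133a-3p (0.82) and miR-133a-5p (0.82), and 0.15 with miR-499-5p.

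Brown fat linked miRNAs, miR-193b and miR-365, were looked at because the family is also known from that tissue. Their summed CPM was 144 to 354 in 17 libraries and 947 in day 7 contralateral replicate 1, the highest library of miR-378d. None of the 5 tested was called in day 7 injured versus naïve cartilage, and their median was -0.22. miR-365-3p, the most abundant, had r = 0.23 with miR-378a-3p, and miR-193b-3p had 0.24.

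Other lists gave the context of the tissue. In day 7 injured versus naïve cartilage, limma-voom called 4 of 7 erythroid miRNAs as lower (3.74% of all tested miRNAs), with a median of -1.10. The 4 were both arms of miR-486a and miR-486b, which are near-identical copies, while miR-451a (-0.25), miR-144-5p (-0.46) and miR-144-3p (-0.01) were not called. miR-486a-5p, which had the same counts as miR-486b-5p, stood at 2150 ± 418 CPM (n = 3) against 4979 ± 1095 CPM (n = 6; log2 fold change -1.22, SE 0.24, adjusted p = 0.000673). The r of miR-486a-5p with miR-378a-3p was 0.43 over all libraries and -0.10 inside groups. No cartilage miRNA of 4 was called (median 0.20, with miR-140-5p at 0.29 and miR-140-3p at -0.09), and miR-140-5p had r = -0.24 with miR-378a-3p. Of 8 leukocyte miRNAs 1 was called as lower (median -0.11, with miR-146a-5p at 0.06 and miR-142a-3p at 0.18). Of 6 vascular miRNAs none was called (median 0.18, with miR-126a-3p at 0.30 and miR-143-3p at 0.19), and miR-126a-3p had r = 0.47 with miR-378a-3p over all libraries and 0.83 inside groups.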

How the data were processed

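Small RNA libraries were prepared with the NEBNext Small RNA kit. Per the study's methods and the submitters' processing notes, the authors trimmed adapters (Trim Galore 0.6.6), aligned reads to mature miRBase sequences (Bowtie 1.3.0) and counted alignments (SAMtools 1.12), and the deposited values are raw counts per mature miRNA and library. The steps ran in an nf-core small RNA pipeline at its default settings, apart from the genome, protocol and adapter. What those settings do with reads of several matches is not spelled out in the sources used here. A row of the table was taken as the sample with the same library number in its title.

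Counts were analysed in R 4.3.3. miRNAs were kept with filterByExpr of edgeR 4.0.16 (minimum count 10, minimum total 15), which left 428 of 1412. TMM factors scaled the libraries, and the model of limma 3.58.1 (voom, lmFit, eBayes) took all 18 of them, each group with its own mean. Each of the 6 contrasts was adjusted by Benjamini-Hochberg over the 428 miRNAs, with a threshold of 0.05. The study's block for mouse pools was not used, since the labels do not give pools. CPM used TMM sizes and log2 CPM a prior count of 2. Ratios used counts with 0.5 added. Totals of 758388 to 4088852 counts set the precision, and PCR copies are not independent molecules. The procedure was run on simulated data, where 192 of 199 tested miRNAs with a planted 4-fold change were recovered (96.5%). Of 20 simulated sets without a change, 2 held a call in day 7 injured versus naïve cartilage. Changes as small as those of the members were not simulated.

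Named miRNAs were the members, miR-1a-3p, the 8 non-members with the highest r with miR-378a-3p and, in each list (skeletal muscle, brown fat linked, cartilage, erythroid, leukocyte and vascular), the 2 tested miRNAs with the highest mean CPM. miR-206-3p, miR-499-5p, miR-133b-3p, miR-1b-3p, miR-144 and the muscle miRNAs with counts in few libraries were named after their values were seen. The members and lists were chosen with earlier results of these data known. Alternatives were other scalings, filters and tests (edgeR, DESeq2 1.42.0), quality weights, fewer groups, and miR-1a-3p or the members left out. Others were miR-1a-3p as a covariate, the counts of the 3p-like members added together, and leaving out each library. Sequences came from RefSeq tables of GRCm38.p6, which matched 3 of 5 members. matplotlib 3.10.9 in Python 3.11.15 drew the figures.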

Additional observations from a re-analysis of the deposited data

Results flagged for a closer look

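Among the 6 naïve libraries, naïve replicate 5 stood apart for 2 members. miR-378b was at 4.69 log2 CPM there, with a gap to the next library of 0.89 of the group's range, and miR-378c was at 10.13 log2 CPM, with a gap of 0.81, both past Dixon's 95% critical value for 6 libraries. Chance marks about 1 in 20 groups, and 10 measures were looked at. That library had 864123 counts, the lowest total of the naïve group, the largest TMM factor of the series (1.36), and 8.61% of its counts in miR-1a-3p, the lowest share among naïve libraries. miR-378b rested on 29 counts in it. Their part in the low values was not tested. Without it, the log2 fold change of miR-378b in day 7 injured versus naïve cartilage was -0.73 (limma-voom adjusted p = 0.146).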

How the results depend on the processing

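No paired analysis was possible because the replicate numbers only follow the order of the samples and pools of mice are not marked in the labels. In the 3 day 7 injured comparisons every member kept its direction under all alternatives run, and calls depended on the setting. For miR-378a-3p, day 7 injured versus naïve cartilage passed the limma-voom threshold with library totals (-0.87, adjusted p = 0.0213), quality weights (-0.80, adjusted p = 0.00784) and only the groups compared (-0.73, adjusted p = 0.0270). In these 3 settings 1, 4 and 2 members were called. Over the alternatives the adjusted p of miR-378a-3p ran from 0.00784 to 0.165 in this comparison. Against the day 1 injured knee it passed with library totals (-0.97, adjusted p = 0.0270), every miRNA with a count (-1.07, 0.0325), edgeR (-1.14, 0.0399), DESeq2 (-1.09, 0.0276) and quality weights (-1.18, 0.00197), with 1, 1, 2, 2 and 5 members called and adjusted p from 0.00197 to 0.123 over the alternatives. Quality weights called 135 of all tested miRNAs in day 7 injured versus naïve cartilage (55 lower), and only the groups compared called 97 (28 lower). Library totals called 65 there (11 lower), and the reported fit called 78 (16 lower). Between the injured knees the reported fit called 67 (15 lower), library totals 52 (3 lower) and quality weights 109 (41 lower). In the same comparison edgeR called 70 (18 lower) and DESeq2 76 (23 lower). With every miRNA with a count, 61 of 1412 were called (9 lower). The filter of 10 counts in every library, which tests fewer miRNAs, called 48, 38 and 44 in the 3 day 7 injured comparisons, against 78, 63 and 67. The cause was not tested for the other settings. Library totals moved the median of all miRNAs by -0.12 in day 7 injured and in day 7 contralateral versus naïve cartilage, by -0.13 between the knees at day 1 and by 0.12 for the interaction.

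Leaving out each library, 0 to 3 members were called between the injured knees, with miR-378a-3p at -1.31 to -0.43, and 0 to 1 against the contralateral knee. The arm ratio moved from -0.06 to 0.05, and was 0.19 with the 3p-like members added. The r of miR-378a-3p with miR-1a-3p was 0.78 to 0.84, and 0.68 with library totals.

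Small differences turned. Between the knees at day 1, leaving out libraries gave -0.24 to 0.65 (miR-378a-3p), -0.11 to 0.51 (miR-378a-5p), -0.22 to 0.49 (miR-378b), -0.19 to 0.65 (miR-378c) and -0.10 to 0.28 (miR-378d), and library totals gave -0.00 for miR-378b. In day 7 contralateral versus naïve cartilage the same members had -0.12 to 0.31, -0.28 to 0.48, -0.30 to 0.19, -0.08 to 0.39 and -0.07 to 0.47. There, library totals gave -0.06 (miR-378a-5p) and -0.04 (miR-378a-3p). For miR-378b, every miRNA with a count gave 0.01, edgeR 0.05, DESeq2 0.06 and totals without the members 0.01. For miR-378a-5p, miR-378a-3p and miR-378c, quality weights gave -0.31, -0.15 and -0.09, and the miR-1a-3p covariate -0.13, -0.16 and -0.07. Depth limits miR-378b most, at 26 counts in its lowest library.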
